A study of Mus musculus with 42 samples.

Results

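The dual-specificity MAP kinase phosphatase genes Dusp1, Dusp4, Dusp5, Dusp6, Dusp8, Dusp10 and Dusp16 were followed through arsenic stress and recovery in 42 libraries from mouse cells. They were chosen by name, with earlier results of these data known, as 7 of the 13508 protein-coding genes with a polyadenylation site (PAS) in the data. RNA-seq rows were matched by gene symbol. In the 3′READS libraries, which count the 3′ ends of poly(A)+ transcripts, a read was given to a gene when its PAS lay in the gene or within 4000 nt downstream on the same strand, before the next gene. Summed over the 38 3′READS libraries, Dusp1 had 23277 reads, Dusp16 6206, Dusp6 5801, Dusp4 4218, Dusp10 2896, Dusp5 1445 and Dusp8 929.

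NIH3T3, a mouse fibroblast line, and C2C12, a mouse myoblast line that forms myotubes in low serum, were left non-treated (NT), given 250 µM sodium arsenite for 1 h (AS), or given the same treatment and then returned to normal medium for 4, 8, 12 or 24 h (RC4, RC8, RC12, RC24). Total NIH3T3 RNA was read by RNA-seq (2 NT, 1 AS, 1 RC4) and by 3′READS (3 NT, 3 AS, and 1 library at each recovery time). NIH3T3 cells were also labelled with 50 µM 4-thiouridine for 1 h before harvest. Their RNA was split into labelled (4sU) and flow-through (Ft) fractions, enriched for newly made and pre-existing RNA (2 NT, 1 AS and 1 RC4 of each). Cytoplasmic NIH3T3 RNA was sequenced before and after immunoprecipitation of the RNA-binding protein TIA1 (2 input and 2 TIA1 libraries each of NT and AS), cytoplasmic C2C12 RNA from proliferating myoblasts (MB) and from differentiated myotubes (MT) was sequenced in 8 libraries (2 NT, 1 AS and 1 RC4 of each), and total RNA of untreated MB and MT in 2 libraries each. In RNA-seq, in the 4sU and Ft fractions and in cytoplasmic C2C12 RNA, the 2 NT libraries were taken at 0 and 4 h. The labels give the strain as C57BL/6 for both lines. The 3′READS libraries held 1048335 to 6974664 PAS reads and the RNA-seq libraries 17093529 to 25151556 reads. The tables start at 5 reads, so a level of 0 means that no PAS of the gene reached that number in the library. The myotube marker Myog was at 0 in the NIH3T3 3′READS libraries and in MB, and so was Ckm but for 1 TIA1 NT library (3.77 RPM, reads scaled by library size and composition). Other muscle markers were not absent. The sum over 8 of them was 213 to 379 RPM in cytoplasmic MB, with 4 or 5 listed, and 7033 to 8793 in cytoplasmic MT. In NIH3T3 cells it was at most 8.53 by 3′READS but 107 to 159 by RNA-seq. The heme oxygenase gene Hmox1 was at 85.8 and 122 RPM in NT, 1112 in AS and 11422 in RC4 by RNA-seq.

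MAP kinases are switched on when a kinase phosphorylates a threonine and a tyrosine in their activation loop, and the dual-specificity phosphatases switch them off by removing both phosphates. DUSP1, DUSP4 and DUSP5 are nuclear and are encoded by genes that growth factors and stress induce quickly. DUSP6 is cytoplasmic and acts on ERK, while DUSP8, DUSP10 and DUSP16 prefer the stress kinases JNK and p38. Arsenite activates JNK and p38 in many cell types.

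The transcript ends behind the counts are shown first, because every 3′READS value below rests on them. Each line gives the last 30 nt before the most used PAS of the gene on the transcribed strand, from assembly NCBIM37 (mm9), with the polyadenylation signal in capitals where it falls in those bases.
Dusp1: caacagAATAAAttatgacgtttctattga
Dusp4: ttttgAATAAAaagatacgcatatgcctga
Dusp5: tacaaAATAAAaataacaaaaaaaaaaaaa
Dusp6: taaattattAATAAAtaactattttggcta
Dusp8: acaatgtgttgtAATAAAtcatgagacgga
Dusp10: tataaatgaacctcgtttggggatgtgtca
Dusp16: aAATAAAatcagaactggtacctatttgta

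In the order printed they lie at chr17:26642536-26642565 (minus strand), chr8:35882920-35882949 (plus), chr19:53616884-53616913 (plus), chr10:98730090-98730119 (plus), chr7:149265406-149265435 (minus), chr1:185899487-185899516 (plus) and chr6:134665491-134665520 (minus). All 7 lay within 11 nt of the annotated 3′ end, and those of Dusp4 and Dusp10 were 1 nt past it. AATAAA stood in the 40 nt before 6 of the 7 PASs, against 66.7% of the main PASs of 12729 genes. Neither AATAAA nor ATTAAA was found before that of Dusp10, and 82.5% of genes had either. The genome reads 13 A in a row at the end of the Dusp5 site. By the study's methods, a PAS read had to hold bases of the tail that the genome does not encode. How well that holds at this run was not tested. The main PAS held 95.9% of the 3′READS reads of Dusp1, 91.9% of Dusp6, 99.5% of Dusp8, 90.9% of Dusp16, 80.7% of Dusp10, 68.2% of Dusp5 and 54.5% of Dusp4. Dusp4 had the strongest additional PAS of the 7 genes (26.8% of its reads), 2058 nt past its annotated end at chromosome 8 position 35885006.

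Between stop codon and main PAS, Dusp1 carried the AU-rich heptamer TATTTAT 3 times in 692 nt and Dusp8 2 times in 2362 nt, and the other 5 genes did not carry it. Of 12395 genes, 24.5% held it at least once and 97.0% held fewer copies than Dusp1. AU-rich elements are known from short-lived transcripts of growth and stress genes. The 5 sites are printed with the heptamer in capitals, the first 3 from Dusp1 (at 107, 396 and 592 nt after the stop codon) and the last 2 from Dusp8 (at 131 and 1704 nt).
Dusp1, chr17:26643103-26643132: gagctggtcctTATTTATttaacacccccc
Dusp1, chr17:26642814-26642843: gtttttaccttTATTTATttttgtgtaggt
Dusp1, chr17:26642618-26642647: gtatgtttgttTATTTATgatctgaagtaa
Dusp8, chr7:149267619-149267648: tttcgatttttTATTTATttaagctagtga
Dusp8, chr7:149266046-149266075: agaggtttaagTATTTATtattattggtta

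RefSeq promoters of GRCm38.p6, from 250 nt before to 50 nt after the start, were searched on both strands for the cAMP-response palindrome TGACGTCA, the AP-1 motif TGACTCA, the serum-response CArG box and GAANNTTC, the core of a heat-shock element. The table holds 6 of the 7 genes, all but Dusp4. TGACGTCA was found in Dusp1 and Dusp8 (1.79% of 32851 promoters hold it), the CArG box in Dusp5 with 2 sites (1.63%) and GAANNTTC in Dusp16 (7.86%). TGACTCA was in none of the 6 windows and in 5.2% of all promoters. The sites are shown with the motif in capitals, as motif matches and not as bound sites.
Dusp1, chr17:26508597-26508626: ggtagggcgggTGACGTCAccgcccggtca
Dusp8, chr7:142095373-142095402: gcccgctccgcTGACGTCAcctgcccccga
Dusp8, chr7:142095329-142095358: ttggctgcaggTGACGTCAggggctttttc
Dusp5, chr19:53529053-53529082: ggggaaatacCCATATTTGGccttatatgg
Dusp5, chr19:53529063-53529092: ccatatttggCCTTATATGGgcactcacgt
Dusp16, chr6:134792635-134792664: catccgcgcttGAAGTTTCctgaccagcga

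By RNA-seq, 5 of the 7 genes rose during the 1 h of arsenite and all 7 were higher after 4 h of recovery. Dusp1 was at 11.9 and 10.5 RPM in the NT libraries, 51.2 in AS and 77.6 in RC4. Dusp4 was at 10.8 and 10.2 in NT, 31.4 in AS and 208 in RC4. Dusp5 was at 27.5 and 18.8 in NT, 37.6 in AS and 235 in RC4. For these nuclear phosphatases both treated libraries lay above both NT libraries, and RC4 was the highest of the 4. Dusp6, the ERK-specific phosphatase, was at 34.4 and 40.01 in NT, 23.9 in AS and 91.7 in RC4. It was the 1 gene of the 7 below both NT libraries in AS. Of the other 3 genes, Dusp8 was at 0.41 and 1.06 in NT, 3.40 in AS and 6.73 in RC4. Dusp10 was at 44.8 and 35.3 in NT, 73.7 in AS and 103 in RC4. Dusp16 was at 9.51 and 8.53 in NT, 15.0 in AS and 59.95 in RC4. All 3 lay above the NT libraries at both times. These reads come from coding sequences, so the levels are compared between libraries and not between genes.

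Against NT, the log2 fold changes in AS were 2.19 ± 0.19 (SE) for Dusp1, 1.58 ± 0.18 for Dusp4, 0.70 ± 0.19 for Dusp5, 2.22 ± 0.53 for Dusp8 and 0.88 ± 0.18 for Dusp10. The adjusted p-values by edgeR's quasi-likelihood test with Benjamini-Hochberg adjustment were 5.06e-08, 1.77e-06, 0.0346, 0.0126 and 0.003. These 5 of 7 stand against 3.70% of the 11189 genes tested that were called higher. Dusp6 (-0.64 ± 0.20, adjusted p = 0.0669) and Dusp16 (0.73 ± 0.22, adjusted p = 0.0595) did not pass. The call for Dusp5 was lost with library totals in place of the median-ratio scaling (adjusted p = 0.0737) and with DESeq2 (0.127), and its value was 1.00 or 0.45 against each NT library alone. Dusp8 had few reads, and its value was 1.68 or 3.05 against each NT library alone. DESeq2 gave it no adjusted p and called Dusp1, Dusp4 and Dusp10. Because each treated condition was 1 library, the fit takes the spread from the NT pair and from other genes, and p-values assume that the treated libraries vary alike.

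After 4 h of recovery the log2 fold changes against NT were 4.31 ± 0.17 for Dusp4, 3.34 ± 0.18 for Dusp5, 3.20 ± 0.51 for Dusp8, 2.79 ± 0.19 for Dusp1, 2.73 ± 0.21 for Dusp16, 1.36 ± 0.18 for Dusp10 and 1.30 ± 0.18 for Dusp6. All 7 were called higher, with edgeR adjusted p-values between 6.82e-15 for Dusp4 and 2.1e-05 for Dusp8, where 27.4% of all genes were. The scaling bears on that background and on the sizes given, and not on the calls of the 7. Its factor was 0.662 in RC4 and 1.158 and 1.16 in NT, so each log2 fold change above is smaller without it. With library totals alone the median of all genes moved to -0.82, and the split went from 3062 higher and 2689 lower to 1113 higher and 6584 lower, with all 7 still called higher. The summed level of 6 markers of other cell types (Ptprc, Cd68, Epcam, Pecam1, Krt8, Krt18) also moved, from 7.78 and 5.15 RPM in NT and 9.62 in AS to 42.2 in RC4, of which the macrophage marker Cd68 made 37.2, with 1 to 4 of the 6 listed in a library and 2 of 2 tested called higher. Of the 8 fibroblast markers, all listed in each NIH3T3 library, Col3a1, S100a4 and Pdgfrb (-2.69 ± 0.18, adjusted p = 4.36e-11 by edgeR) were called lower in RC4 and Vim higher. The part of both marker lists in the result was not tested.

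RC4 was also compared directly with AS, a comparison added after the values were seen. Dusp4 (2.73 ± 0.21, adjusted p = 1.14e-09), Dusp5 (2.64 ± 0.23, 8.12e-09), Dusp16 (2.00 ± 0.25, 1.99e-06) and Dusp6 (1.94 ± 0.22, 5.92e-07) were higher in RC4 by edgeR, where 21.9% of genes were called higher and 19.8% lower. Dusp1 was called higher as well (0.60 ± 0.22, adjusted p = 0.0347), but its adjusted p was 0.0561 with TMM scaling and 0.14 with DESeq2, and its direction turned with library totals (-0.17, adjusted p = 0.535). Library totals changed the split of all genes from 2445 higher and 2218 lower to 779 and 6018. Dusp8 and Dusp10 did not pass this comparison. On the log2 scale, the larger part of the difference between RC4 and NT was thus present in AS for Dusp1, Dusp8 and Dusp10, and came in recovery for Dusp4, Dusp5 and Dusp16.

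3′READS of total RNA followed the genes to 24 h. Its libraries form sets by number (1, 2 and 4). The NT levels of Dusp5, Dusp6, Dusp10 and Dusp16 differed more between sets than NT and AS did within a set, and by fold so did those of Dusp4. Dusp1 went from 97.8 to 121 RPM between NT and AS in set 1, from 50.5 to 371 in set 2 and from 155 to 421 in set 4. It rose in each of the 3 sets, by 1.23, 7.36 and 2.71 fold. In set 4 it was back at 169.8 in RC4, then 68.1, 75.1 and 62.6 at 8, 12 and 24 h, all 3 below the NT level of that set. RNA-seq, which counts coding sequence, had shown Dusp1 higher in RC4 than in AS. Dusp4 went from 13.2 to 39.9, from 5.35 to 11.4 and from 19.7 to 24.0 RPM in the same sets, and in recovery was at 205, 54.0, 30.6 and 22.0. It was thus highest at 4 h, 10.4 fold over the NT library of its set, and close to that library again at 24 h.

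Dusp5 was at 72.4 in NT and 57.3 in AS of set 1, at 0 and 0.761 in set 2 and at 0 in both libraries of set 4, where it reached 24.6 in RC4, 4.50 at 8 h and 13.0 at 12 h and was again at 0 at 24 h. Set 1 stands apart from the other sets for this gene by more than any treated library does. Dusp6 was at 38.2, 22.0 and 51.0 in NT and 19.9, 17.5 and 47.1 in AS, lower in AS in 3 of 3 sets, and at 110.4, 59.7, 76.2 and 55.5 in recovery. Dusp8 stayed between 1.78 and 3.19 in NT and between 3.28 and 4.87 in AS, reached 6.60 in RC4, and was at 0 at 12 and 24 h.

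Dusp10 was at 21.4, 9.46 and 4.46 in NT and 27.5, 22.8 and 8.26 in AS, higher in AS in 3 of 3 sets. It went on to 27.6 in RC4, 19.1 at 8 h, 12.4 at 12 h and 0 at 24 h, and was 6.19 fold over the NT library of its set in RC4. Dusp16 was at 39.3, 69.1 and 20.4 in NT and 55.8, 98.5 and 17.4 in AS, so that 2 of 3 sets moved up. It was at 56.4 in RC4 and between 17.6 and 18.7 afterwards, back near the NT level. In set 4, each of the 7 genes but Dusp1 was highest in RC4.

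**Figure D1:**
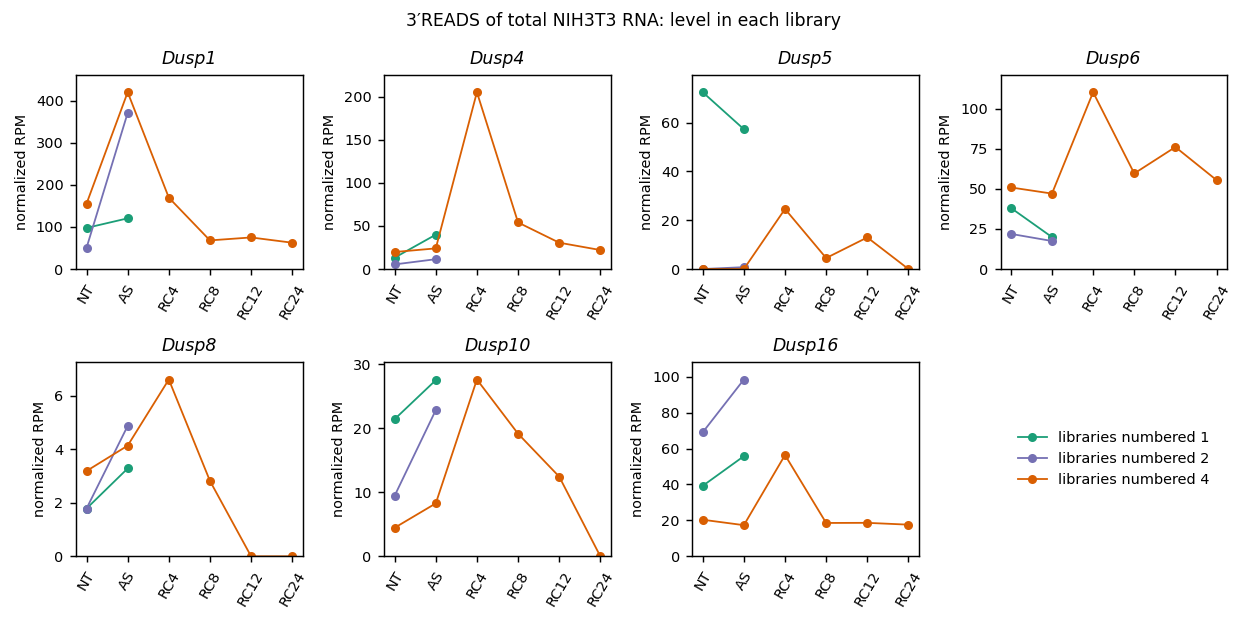
Each panel plots the level of 1 gene (normalized RPM, linear axis from 0) in the 10 libraries of total NIH3T3 RNA, with conditions evenly spaced on the x axis and lines joining libraries of the same number. Dusp1 peaks in AS (421 RPM in set 4), the other 6 genes peak in RC4 in set 4, and Dusp5 is high in set 1 only.

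No gene of the 9118 tested (0%) was called by edgeR between AS and NT in these total RNA libraries, with 20 at an unadjusted p under 0.05, 1 of them Dusp1 (1.59 ± 0.64), and none was called by DESeq2. For RC4 against NT edgeR also called 0%, with 514 genes at an unadjusted p under 0.05 and Dusp4 among them (4.03 ± 0.83). DESeq2 called 23, Dusp4 included (adjusted p = 0.0469), and the median of all genes was -0.20. Because same-numbered libraries deviated together, the fit with the library number as a block was made as well. It called 23 genes between AS and NT (0.252%) and none of the 6 members tested, with Dusp1 at 1.55 ± 0.39 (adjusted p = 0.263), Dusp4 at 1.06 ± 0.27 (0.29) and Dusp10 at 0.83 ± 0.29 (0.569). For RC4 it called 544 genes higher (5.97%), among them 4 of the 6, namely Dusp4 (3.77 ± 0.37, adjusted p = 0.00104), Dusp10 (2.59 ± 0.52, 0.0162), Dusp16 (1.74 ± 0.35, 0.0163) and Dusp5 (0.00984). For Dusp5 no fold is given, since it was not listed in the NT library of that set. Dusp6 was at 0.95 ± 0.33 (adjusted p = 0.0976) and Dusp8 did not reach the mean of 10 reads needed for a test. In bulk RNA such as this, a change in the share of cells that express a gene and a change per cell cannot be told apart.

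The 4sU fraction is enriched for RNA made in the last hour and the Ft fraction for RNA made before it. In AS the labelling hour was the hour of arsenite, so Ft levels there cannot be read as RNA made before it alone. How much new RNA the Ft fraction held was not tested. In the 4sU fraction Dusp1 was at 75.4 RPM in both NT libraries, 1120.5 in AS and 383 in RC4. In the Ft fraction it was at 46.3 and 44.1 in NT, 285 in AS and 245 in RC4. New Dusp1 RNA was thus far above NT in AS and, in RC4, below AS but above NT, while in Ft the AS and RC4 levels were close. Its log2 fold changes against NT were 3.89 ± 0.20 in 4sU AS (adjusted p = 5.23e-07), 2.35 ± 0.20 in 4sU RC4 (1.14e-05), 2.66 ± 0.20 in Ft AS (2.38e-05) and 2.44 ± 0.21 in Ft RC4 (9.06e-06) by edgeR. RC4 was lower than AS in 4sU (-1.55 ± 0.23, adjusted p = 0.000933), and the difference in Ft did not pass (-0.22 ± 0.23, 0.558).

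Dusp4 showed another order. In 4sU it was at 31.7 and 18.3 in NT, 35.5 in AS and 260 in RC4, and in Ft at 3.72 and 7.11 in NT, 20.6 in AS and 191 in RC4. Its rise was called in RC4 in both fractions, at 3.42 ± 0.30 in 4sU (adjusted p = 1.48e-05) and 5.10 ± 0.36 in Ft (2.48e-06), and not in AS. Dusp5 was at 14.2 and 12.8 in NT, 24.6 in AS and 68.2 in RC4 of the 4sU fraction, and at 2.37 and 4.26, 12.9 and 42.1 in Ft. It too was called in RC4, at 2.35 ± 0.32 in 4sU (adjusted p = 0.000276) and 3.62 ± 0.39 in Ft (6.11e-05). RC4 exceeded AS for Dusp4 in 4sU (2.87 ± 0.38, adjusted p = 0.000457) and Ft (3.21 ± 0.40, 0.000333) and for Dusp5 in 4sU (1.47 ± 0.39, 0.0185) and Ft (1.71 ± 0.42, 0.0141). DESeq2 did not call Dusp5 in this comparison (adjusted p = 0.237 and 0.207).

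Dusp6 was at 134 and 128 in NT, 233 in AS and 349 in RC4 of the 4sU fraction, and at 25.0 and 25.6, 35.0 and 99.8 in Ft. New Dusp6 RNA was thus higher in AS (0.83 ± 0.20, adjusted p = 0.0341), while total RNA was lower in AS than in NT in RNA-seq and in each set of 3′READS. The 4sU call was lost with library totals (0.60, adjusted p = 0.0951), with DESeq2 (0.129) and without either 4sU NT library (0.0536 and 0.0658). In RC4 Dusp6 was called in both fractions, at 1.41 ± 0.19 in 4sU (adjusted p = 0.000289) and 1.98 ± 0.22 in Ft (6.9e-05).

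Dusp8 was at 6.56 and 7.44 in NT, 33.6 in AS and 15.8 in RC4 of the 4sU fraction, the highest of these in AS, and at 0 and 2.56, 4.05 and 9.35 in Ft, the highest in RC4. Dusp10 was at 35.4 and 44.0 in NT, 55.4 in AS and 93.4 in RC4 of 4sU, and at 8.12 and 8.24, 17.3 and 24.2 in Ft. Dusp16 was at 80.2 and 54.8 in NT, 101 in AS and 214 in RC4 of 4sU, and at 19.3 and 14.2, 17.3 and 88.8 in Ft. All 3 were highest in RC4 of Ft, and in 4sU Dusp10 and Dusp16 were. In RC4 Dusp16 was called in 4sU (1.68 ± 0.25, adjusted p = 0.000558) and Ft (2.41 ± 0.29, 0.000127) and Dusp10 in 4sU (1.23 ± 0.25, 0.00394) and Ft (1.56 ± 0.34, 0.00514), the last 2 not by DESeq2 (0.114 and 0.065). RC4 exceeded AS for Dusp16 in 4sU (1.08 ± 0.31, adjusted p = 0.026, but 0.151 with DESeq2) and Ft (2.36 ± 0.37, 0.00116) and for Dusp6 in Ft (1.51 ± 0.26, 0.00236). Dusp8 passed in Ft (2.74 ± 0.87, adjusted p = 0.0347, but 0.0607 with library totals and 0.13 with DESeq2) and not in 4sU (1.16 ± 0.63, 0.193, but 0.0452 and 0.0464 without either Ft NT library). Since Dusp8 was not listed in 1 Ft NT library, its value in Ft ran from 1.85 to 7.87 when single NT libraries were left out, and no size is read from it.

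In all, edgeR called Dusp1 and Dusp6 higher in 4sU AS, where 3.03% of 9586 genes were called higher, Dusp1 in Ft AS (0.595%), 6 of the 7 in 4sU RC4 (15.1%) and all 7 in Ft RC4 (16.4%). Between RC4 and AS, 3 rose and Dusp1 fell in 4sU (11.7% of genes were called higher and 11.7% lower), and Dusp4, Dusp5, Dusp6 and Dusp16 rose in Ft (13.3% higher and 8.17% lower). Scaling by library totals lowered the median of all genes by 0.21 in 4sU AS, 0.32 in 4sU RC4 and 0.45 in Ft RC4. It turned the splits of 290 higher and 183 lower, 1449 and 1294, and 1568 and 1139 into 181 and 438, 925 and 2156, and 929 and 2527, and for Ft RC4 against AS 1278 and 783 into 770 and 1763. Dusp4 in Ft AS was not called (adjusted p = 0.0709) but was called with DESeq2 and without any 1 of the NT libraries, and without the second Ft NT library Dusp5 and Dusp8 were called there as well. Without either Ft NT library Dusp8 was called in 4sU AS. Of the 8 fibroblast markers 6 fell in 4sU RC4, and their summed level was 7890 and 7830 RPM in NT, 9947 in AS and 4882 in RC4 of that fraction. In Ft RC4, 4 of the 8 were called lower, Col1a1 most (-4.34 ± 0.32, adjusted p = 3.7e-06 by edgeR). Of the 6 markers of other cell types only Cd68 was listed in these fractions. It was at 8.24 and 12.5 RPM in NT and 39.1 in RC4 of Ft, and was called higher there (1.92 ± 0.40, adjusted p = 0.00461). The part of these markers in the results was not tested.

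**Figure D2:**
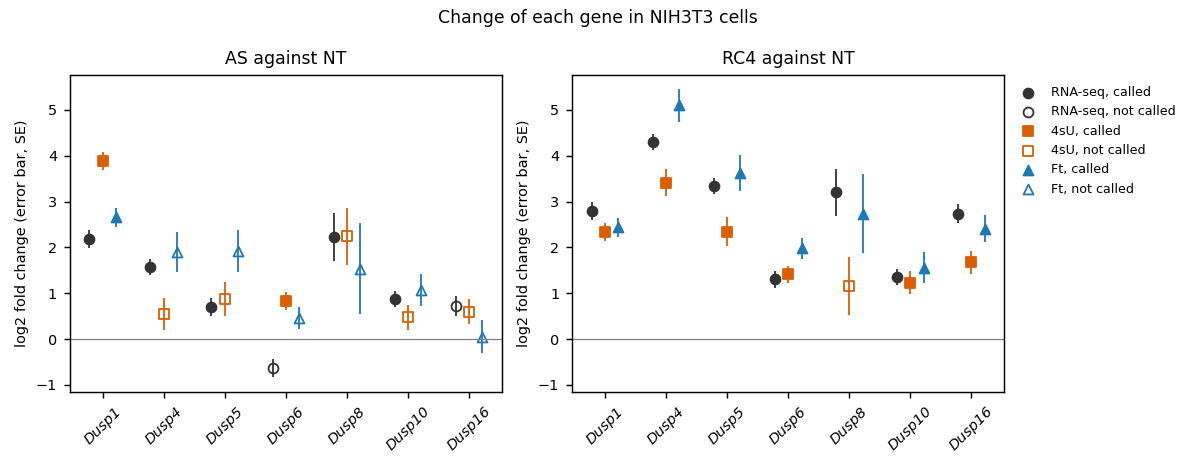
Points give the log2 fold change against NT in NIH3T3 cells from RNA-seq and from the 4sU and Ft fractions, with SE bars, filled where the adjusted p was under 0.05, for AS (left) and RC4 (right). The 4sU value of Dusp1 in AS (3.89) is the highest of the left panel, and Dusp4 in RC4 (4.31, 3.42 and 5.10) tops each series of the right panel.

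In non-treated cells each of the 7 was lower in Ft than in 4sU, and 26.8% of genes were. The log2 differences were -2.37 ± 0.19 for Dusp6, -2.33 ± 0.75 for Dusp8, -2.28 ± 0.26 for Dusp10, -2.13 ± 0.36 for Dusp4, -2.004 ± 0.25 for Dusp16, -1.98 ± 0.37 for Dusp5 and -0.74 ± 0.18 for Dusp1, with edgeR adjusted p-values from 5.08e-06 for Dusp6 to 0.0212 for Dusp8. Dusp1 was the closest to even of the 7, and without the second Ft NT library it did not pass (-0.70, adjusted p = 0.066). Dusp8 did not pass without the second 4sU NT library (-2.23, 0.0641), without the first Ft NT library (-1.44, 0.0598) or with DESeq2 (0.0682), and without the second Ft NT library, leaving only the one in which it was not listed, its value was -7.46, so no size is read from it. Library totals moved the split of all genes from 2176 higher and 2565 lower to 1754 and 2906. The measured ratio depends on how much RNA was taken from each fraction and on the number of uridines in a transcript, for which no correction was made here.

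The ratio moved in opposite directions for Dusp1 and Dusp4 in AS. For Dusp1 Ft over 4sU was 0.615 and 0.584 in the NT samples, 0.254 in AS and 0.639 in RC4. For Dusp4 it was 0.117 and 0.389 in NT, 0.58 in AS and 0.736 in RC4. Its Ft NT levels rest on 11 and 25 reads, and in the library with 11 its PAS past the annotated end was not listed. The edgeR fit without pairing called no gene for AS minus NT or RC4 minus NT (0% and 0%), with 985 and 1292 genes at an unadjusted p under 0.05, and DESeq2 called 16 and 22 and gave the 7 no adjusted p. Since a 4sU and an Ft library come from the same RNA, the fit with the RNA sample as a block was made too. It called 512 genes for AS (5.34%), with Dusp1 lower (-1.23 ± 0.23, adjusted p = 4.72e-05) and Dusp4 higher (1.31 ± 0.43, 0.0468), and 950 for RC4 (9.91%), with Dusp4 higher (1.66 ± 0.35, 0.000211). That fit has 1 residual degree of freedom and takes its spread mostly from the other genes. The other 5 genes passed at neither time.

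**Figure D3:**
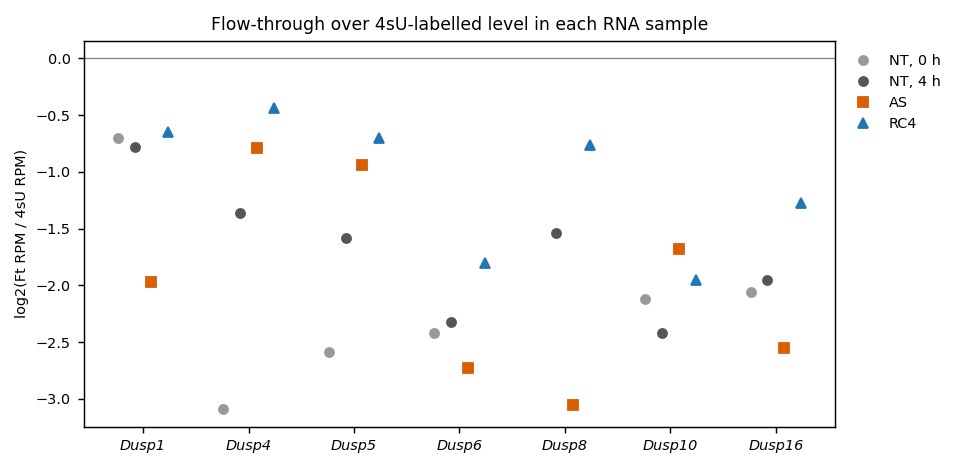
Each point is log2 of Ft RPM over 4sU RPM of 1 gene in 1 RNA sample, grey for the NT samples at 0 and 4 h, orange for AS and blue for RC4. Dusp1 falls in AS from about -0.7 to -1.97 and is back at -0.65 in RC4, whereas Dusp4 lies higher in AS (-0.79) and RC4 (-0.44) than in either NT sample, and the NT value of Dusp8 at 0 h is missing because Ft was at 0.

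TIA1 is a stress granule protein that binds U-rich RNA. In the cytoplasmic NIH3T3 libraries of the TIA1 experiment, Dusp1 was at 29.8 and 60.2 RPM in NT input and 203 and 599 in AS input, and at 82.3 and 225 in NT and 299 and 692 in AS after TIA1 immunoprecipitation. AS lay above NT in both series without overlap. TIA1 over input was 2.76 and 3.74 fold in NT and 1.47 and 1.16 fold in AS. Dusp10 was 2.11 and 2.81 fold in NT and 1.18 and 1.91 fold in AS. Dusp16 was 2.51 and 0.770 fold in NT and 3.804 and 1.66 fold in AS, so its NT libraries lay on either side of even. Dusp6 was between 0.720 and 0.998 fold in all 4 pairs, Dusp4 between 1.24 and 4.40 fold with 5 to 91 reads a library, and Dusp8 was listed in only 1 of the 8 libraries.

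None of the 6 genes tested passed with edgeR for TIA1 against input in NT (3.90% of 9002 genes were called) or AS (1.14%), or for input AS against NT (0.0111%). At an unadjusted p under 0.05 were Dusp1 and Dusp10 in NT, Dusp16 in AS and Dusp1 for the input, where its log2 fold change was 3.16 ± 0.76. DESeq2 called none of the 6 in the TIA1 comparisons and Dusp1 for the input. By the study's methods input and TIA1 RNA were taken from the same lysate. With the library number as a replicate block, Dusp1 was called higher in TIA1 than in input in NT (1.69 ± 0.28, adjusted p = 0.00356 by edgeR). It was alone among the 6, where 19.8% of all genes were called in either direction. A count of 1 in 6 is near that share and is no result about these genes as a group. In AS the block called none of the 6 (Dusp1 0.38 ± 0.26, adjusted p = 0.367), beside 17.3% of all genes. Dusp1 in TIA1 AS was at 0.31 ± 0.69, and leaving out the first AS input or the second TIA1 AS library turned its sign. Between stop codon and main PAS the motif TTTT, counted with overlaps, stood 34.0 times per kb in Dusp10, 31.7 in Dusp6, 29.0 in Dusp5, 26.0 in Dusp1, 8.97 in Dusp4, 7.62 in Dusp8 and 7.2 in Dusp16, beside a median of 11.6 over 12395 genes. Of the 4 genes above that median, Dusp1 and Dusp10 were higher in TIA1 than in input in all 4 pairs and Dusp6 lower (0.720 to 0.998 times input). Dusp5 was at 2.09 times input in the second NT pair and 1.73 times in the second AS pair, and was not listed in the other inputs. Of the genes below that median, Dusp4 was higher in TIA1 than in input in all 4 pairs (1.24 to 4.40 times). Dusp16 was higher in all but the second NT pair (0.770 times), and Dusp8 gave no ratio. A link between the motif and TIA1 was not tested.

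In cytoplasmic RNA of C2C12 cells, Dusp1 and Dusp4 rose in recovery in both MB and MT. Dusp1 was at 53.0 and 65.1 RPM in MB NT, 331 in AS and 273 in RC4, and at 23.8 and 50.8 in MT NT, 198 in AS and 152 in RC4. Dusp4 was at 24.2 and 26.6 in MB NT, 39.9 in AS and 130.1 in RC4, and at 11.1 and 11.1 in MT NT, 11.9 in AS and 58.6 in RC4. As in the 3′READS libraries of NIH3T3 cells, Dusp1 was highest in AS and Dusp4 in RC4, in both MB and MT. Dusp5 was at 0 and 3.39 in MB NT, 4.31 in AS and 18.4 in RC4, and in MT was listed in RC4 alone, at 11.8. Dusp6 was at 12.7 and 28.3 in MB NT, 9.69 in AS and 26.5 in RC4, and at 6.16 and 18.3 in MT NT, 8.70 in AS and 36.1 in RC4, the MT RC4 library lying above the others. Dusp16 was at 9.22 and 10.2 in MB NT, 9.33 in AS and 27.6 in RC4, and at 9.44 and 14.9 in MT NT, 15.1 in AS and 63.9 in RC4. Dusp8 ranged from 5.19 to 15.1 in MB and from 9.85 to 27.8 in MT, and Dusp10 from 5.53 to 15.5 over all 8 libraries, with its NT libraries spanning 5.53 to 14.8.

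By edgeR, Dusp1 (2.21 ± 0.39, adjusted p = 0.0325) and Dusp4 (2.35 ± 0.27, 0.0104) were higher in MB RC4, where 2.39% of 8655 genes were called higher. In MT RC4, Dusp4 (2.40 ± 0.29, adjusted p = 0.00978), Dusp16 (2.38 ± 0.36, 0.022, and 0.175 with DESeq2) and Dusp1 (2.02 ± 0.39, 0.0478, and 0.0594 with library totals) were, against 2.20% of genes. None of the 7 passed in AS, where 0.266% of genes were called higher in MB and 0.196% in MT. Dusp1 was then at 2.49 ± 0.39 in MB (adjusted p = 0.0924) and 2.40 ± 0.39 in MT (0.104), was the only 1 of the 7 at an unadjusted p under 0.05 in each, and was called by DESeq2 in both. These counts hang on single NT libraries, since the spread comes from 2 pairs of them. In MT RC4, the count was 0 without the first MT NT library, 1 (Dusp1) without the second, and 6 without either MB NT library. In MB RC4 it was 2 without either MT NT library and 4 without either MB NT library. In MB AS it was 2 and 1 without the first and second MB NT library, and in MT AS 1 without either. Library totals moved the split in MB RC4 from 207 higher and 144 lower to 141 and 410.

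None of the 7 passed between RC4 and AS in MB (0.243% of genes were called higher and 0.139% lower) or MT (0.324% and 0.15%) with edgeR or DESeq2 (library totals turned the splits of 21 higher and 12 lower and of 28 and 13 into 25 and 112 and 25 and 21), although without either MB NT library edgeR called 4 in each (Dusp4, Dusp5, Dusp6 and Dusp16). Dusp4 and Dusp16 in MB, and these with Dusp5 and Dusp6 in MT, were at an unadjusted p under 0.05. The differences between MT and MB in their response were called for no gene in AS (0%, with 547 at an unadjusted p under 0.05 and 1 called by DESeq2) or RC4 (0%, with 830 and 12), and none of the 7 was at an unadjusted p under 0.05 in either.

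Untreated MB and MT differed more clearly. Dusp4 was at 46.7 and 51.8 RPM in total MB RNA and 3.87 and 5.46 in MT, a log2 difference of -3.38 ± 0.22 (adjusted p = 4.88e-10 by edgeR). Dusp6 was at 21.9 and 23.7 in MB and 10.2 and 11.9 in MT (-1.04 ± 0.22, adjusted p = 0.000527), and Dusp1 at 45.3 and 49.3 in MB and 34.5 and 31.3 in MT (-0.53 ± 0.15, 0.00673). Dusp8, Dusp10 and Dusp16 moved the opposite way. Dusp8 was at 10.2 and 8.36 in MB and 28.5 and 36.3 in MT (1.82 ± 0.22, adjusted p = 1.47e-06). Dusp10 was at 4.67 and 5.58 in MB and 12.2 and 16.6 in MT (1.48 ± 0.31, adjusted p = 0.00052). Dusp16 was at 22.5 and 18.6 in MB and 33.1 and 32.3 in MT (0.68 ± 0.18, adjusted p = 0.00326). Thus Dusp8, Dusp10 and Dusp16 were higher in MT and Dusp1, Dusp4 and Dusp6 higher in MB, with no overlap of libraries for any of the 6. Of 9892 genes, 32.2% were called higher in MT and 29.4% lower. DESeq2 did not call Dusp1 (adjusted p = 0.0928) or Dusp16 (0.074), and Dusp1 did not pass without the second of the MT libraries (-0.44, 0.0782). Dusp5 was listed in MB alone, at 2.045 and 2.32, too low for a test. In the cytoplasmic NT libraries, normalized apart from these, the MB and MT ranges of Dusp6, Dusp8, Dusp10 and Dusp16 overlapped.

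**Figure D4:**
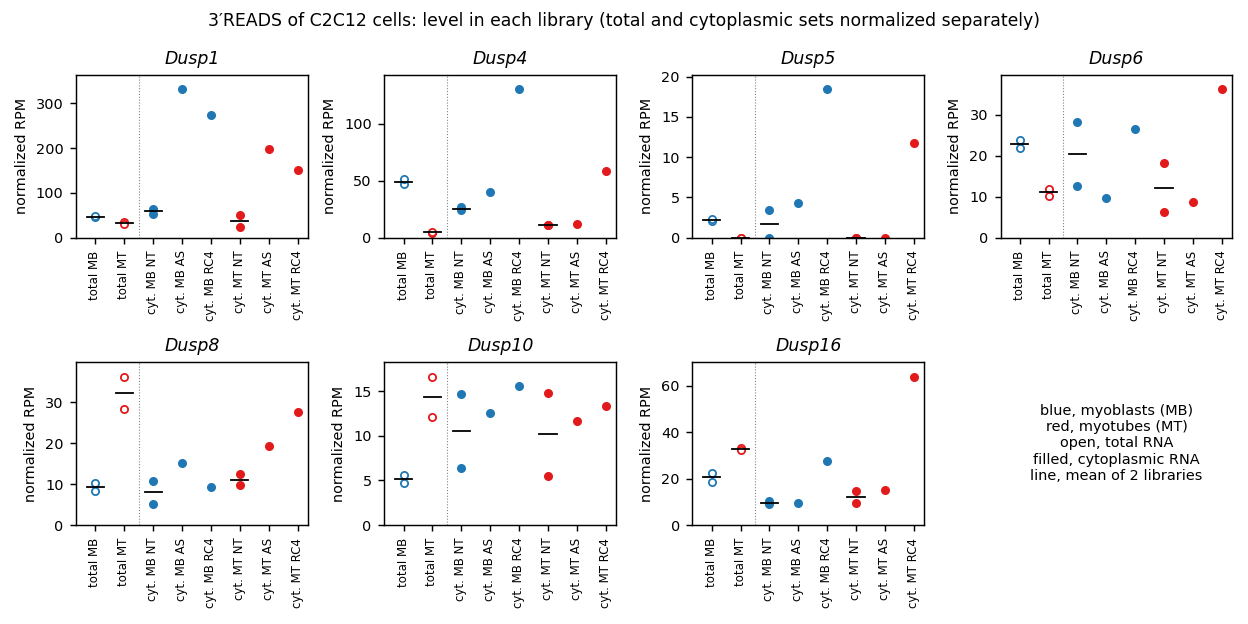
Each panel plots the level of 1 gene (normalized RPM, linear axis from 0) in every C2C12 library, open for total and filled for cytoplasmic RNA, blue for MB and red for MT, with a line at the mean of 2 libraries. Dusp4 is near 50 RPM in total MB and near 5 in total MT, and in both cell states its cytoplasmic level is highest in RC4 (130.1 and 58.6).

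Alternative polyadenylation was compared as the share of reads at the distal of the 2 most used 3′UTR PASs. Dusp4 offers the widest choice, with a proximal PAS at 35882949 and a distal PAS at 35885006 on chromosome 8 whose last 30 nt read as follows, signal in capitals.
Dusp4 distal PAS, chr8:35884977-35885006: tttgaagaaaAATAAAtacattttcaacca

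The distal share of Dusp4 was 39.5% and 51.9% in 4sU NT, 43.5% in AS and 42.9% in RC4, with 95% Wilson intervals of 29.2 to 50.7%, 41.1 to 62.4%, 31.9 to 55.9% and 39.6 to 46.2%. In total RNA it was 50.0% in NT and 32.1% in AS of set 1, and in set 4 45.2% in NT, 20.7% in AS, 32.1% in RC4, 41.0%, 34.1% and 52.0% at 8, 12 and 24 h. The share was lower in AS in both sets, and in set 2 the distal PAS was not listed in either library. Fisher's exact test, two-sided and on the reads of 1 library against another, gave p = 0.0873 in set 1 and p = 0.0579 in set 4 for AS and p = 0.161 for RC4, so none of these passed. In the TIA1 experiment the distal PAS of Dusp4 held 41.2% (14 reads) and 41.4% (24 reads) of the reads in the 2 TIA1 NT libraries, was not listed in the 4 inputs or the first TIA1 AS library, and held 7.2% (6 reads) in the second. The inputs had between 5 and 33 reads at the proximal PAS. In cytoplasmic C2C12 RNA the share was 44.4% and 23.4% in MB NT, 26.1% in AS and 16.7% in RC4, and 25.9% and 34.4% in MT NT, 15.6% in AS and 19.4% in RC4. RC4 lay below both NT libraries in each cell state, and no test was made there. Intervals cover counting error only, since reads were not counted by molecular identifiers.

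**Figure D5:**
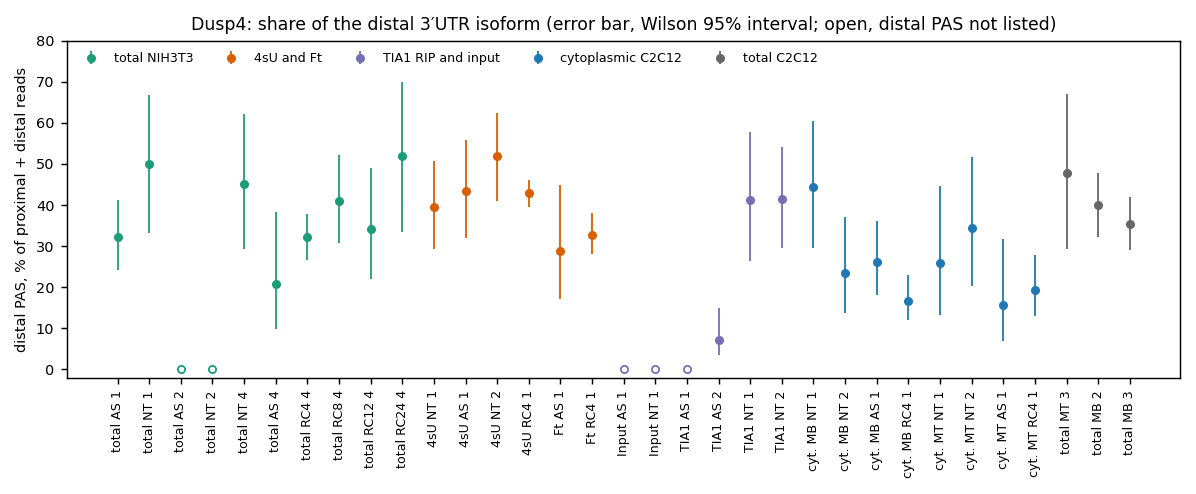
Points give the share of Dusp4 reads at the distal PAS (percent of proximal plus distal reads) in each 3′READS library that had enough reads, with 95% Wilson intervals, coloured by experiment and open where the distal PAS was not listed. In TIA1 libraries the share is 41.2% and 41.4% in NT and 7.2% or not listed in AS, and in 4sU it stays between 39.5% and 51.9%.

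The criterion used here asked for over 5 reads of each isoform on both sides of a comparison. It also asked for an exact p under 0.05 and a change over 5 percentage points. In total RNA both sides were single libraries of a set. In 4sU RNA the reads of both NT libraries were summed, and the read limit applied to that sum. By this criterion Dusp6 was the only 1 of the 7 with a changed ratio. Its distal share was 87.5% (78.5 to 93.1%) in NT and 96.2% (92.4 to 98.1%) in RC4 of total RNA (Fisher's exact p = 0.0128, adjusted p = 0.132), as 1 of the 2 genes tested, where 14.8% of 2177 genes changed. Its adjusted p did not pass, and in 4sU RNA its share moved the other way, from 92.4% in the summed NT libraries to 89.4% in RC4. The proximal PAS of Dusp6 ends in 12 T in the genome. None of the 6 genes tested changed in 4sU RNA in AS (28.2% of 3671 genes did) or RC4 (28.8% of 4323), and none of the 7 could be tested in all 3 sets of total RNA in AS (0.307% of 1630). Against the summed 4sU NT libraries, Dusp1 (93.8% to 90.5%, Fisher's exact p = 0.0182) and Dusp6 (Fisher's exact p = 0.015) were under 0.05 in RC4. Both shifts were smaller than the 5 points required. Against either 4sU NT library alone, neither Dusp1 nor Dusp6 was at an exact p under 0.05 in RC4. In Ft RNA, not tested for isoforms, the distal share of Dusp1 was 96.4% and 95.5% in NT, 90.1% in AS and 85.7% in RC4.

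Some PASs lay away from the 3′UTR. Dusp5 had one in an intron at chromosome 19 position 53613830, with 9 reads in a TIA1 NT library and 5 in 4sU RC4. Dusp16 had one in an exon at chromosome 6 position 134687501, with 6 reads in 4sU NT, 17 in 4sU AS and 49 in 4sU RC4, where the genome holds a run of 13 A. Dusp10 had one in an intron at chromosome 1 position 185869095, with 62 reads from 5 libraries, all of them AS or RC4: 10 in total AS of set 2, 6 in 4sU AS, 19 in 4sU RC4, 6 in an AS input and 21 in a TIA1 AS library. Its site is preceded by ATTAAA, in capitals in the 30 nt printed here.
Dusp10 intronic PAS, chr1:185869066-185869095: ttgagaaaaATTAAAgaggtgaacaaacaa
An intronic PAS of Dusp4 at chromosome 8 position 35880544 had 25 reads, all in 1 TIA1 AS library. No test was made on these sites, and a library with fewer than 5 reads at a site does not list it.

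Over the 10 libraries of total NIH3T3 RNA, the genes whose log2 level was most like that of Dusp1 were Csrnp1 (Pearson r = 0.83) and the immediate-early nuclear receptor gene Nr4a1 (0.79), of 5833 genes compared. For Dusp4 they were Ostm1 (0.98) and Pmepa1 (0.96), for Dusp5 Msn (0.95), for Dusp6 Fermt2 (0.98) and Clcf1 (0.96), for Dusp10 Eif2b2 (0.90) and for Dusp16 Ric8 (0.97). These are descriptions with no test, and because the 10 libraries fall into numbered sets the values of r hold the differences between sets as well. Dusp8 was too low for this.

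Other genes of MAP kinase signalling were tested as lists in RNA-seq. The feedback inhibitors of receptor and Ras signalling had 2 of 8 higher in AS, Spry2 and Errfi1 (1.06 ± 0.16, adjusted p = 0.000118 by edgeR), with a list median of 0.57. None of the 7 MAP kinases, 7 MAP kinase kinases, 9 MAP kinase-activated kinases, 3 other MAP kinase phosphatases and 6 atypical dual-specificity phosphatases tested was called in AS, with medians between -0.24 and 0.05 beside -0.01 over all genes. In RC4 against NT, 6 of the 8 feedback inhibitors rose and none fell (median 1.19), led by Spry2 (2.31 ± 0.17, adjusted p = 3.47e-10), an inhibitor of growth factor signalling to ERK. In this comparison 27.4% of all genes were called higher and 24% lower. Of the 7 MAP kinase kinases 2 rose and 2 fell, Map2k6 most (-1.55 ± 0.29, adjusted p = 0.00014). Of the MAP kinase-activated kinases 3 of 9 rose, led by Mknk2 (1.53 ± 0.18, 4.34e-07). Both shares that rose are near that of all genes and are no result about these lists. Of the other MAP kinase phosphatases Dusp9 rose (1.47 ± 0.32, 0.000639), and among the atypical phosphatases, which mostly do not act on MAP kinases, Dusp14 rose and Dusp19 fell (-2.0 ± 0.64, 0.012). The medians of these lists in RC4 stand beside -0.01 for all genes, and with library totals the all-gene median was -0.82.

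In the 4sU fraction of AS the only 1 of these listed genes called was Dusp2 (2.20 ± 0.53, adjusted p = 0.0412 by edgeR), another nuclear inducible phosphatase. In 4sU RC4, where 15.1% of all genes were called higher and 13.5% lower, 2 of 7 feedback inhibitors rose, with Spry2 at 1.69 ± 0.21 (adjusted p = 0.000173), Dusp9 rose (1.54 ± 0.28, 0.00174) and Dusp7 fell, Map2k1 rose (1.78 ± 0.27, 0.000607) and Map2k5 fell, Mapk8 and Mapk9 rose (Mapk9 1.33 ± 0.24, 0.00174), none of 8 MAP kinase-activated kinases was called, and Dusp3 rose (1.14 ± 0.27, 0.00874) while Dusp14 fell. Between untreated MB and MT, Dusp7 and Dusp9 were lower in MT (Dusp9 -3.02 ± 0.19, adjusted p = 2.22e-10), as Dusp6 was, and 6 of 8 atypical phosphatases were higher, led by Dusp27 (4.66 ± 0.19, 8.14e-13), a gene of muscle. Of 8 MAP kinases 2 were higher and 4 lower in MT, Mapk11 most (-1.18 ± 0.17, adjusted p = 1.15e-05), of 5 MAP kinase kinases Map2k2 was lower (-0.95 ± 0.18, 0.000178), of 6 MAP kinase-activated kinases 3 were higher and Rps6ka4 lower (-1.82 ± 0.12, 3.1e-10), and of 6 feedback inhibitors 1 was higher (Spry1, 4.65 ± 0.39, 1.16e-08) and 2 lower. Of all genes 32.2% were called higher and 29.4% lower in this comparison.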

How the data were processed

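Cells of the mouse lines NIH3T3 and C2C12 were profiled in 38 3′READS and 4 RNA-seq libraries. The authors deposited raw read counts, per PAS for 3′READS and per gene for RNA-seq. Per the study's methods and the submitters' processing notes, 3′READS reads were trimmed with cutadapt and mapped to mm9 with Bowtie2, and RNA-seq reads, from a strand-specific library, were mapped with STAR and summed over coding sequences. The deposited counts start at 5 reads. Each of the 42 libraries was used, and 19 damaged RNA-seq rows were left out.

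PASs within 24 nt were joined (99725 positions, 83916 sites), and 61464 sites were given to a protein-coding gene of the mm9 annotation (GENCODE M1) or its 4000 nt downstream, 886 ambiguous ones being left out. The name Dusp8 is borne by 2 gene models, and its PASs were given to the one they lie in. Reads of a gene were summed. Levels (RPM) are reads divided by the library total times the median-ratio factor. A 3′READS read marks a transcript end, but reads were not counted by molecular identifiers. How evenly the ends of different genes were recovered was not tested, so levels are compared between libraries and not between genes.

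Counts were tested with edgeR 4.0.16 (quasi-likelihood, median-ratio normalization, mean of at least 10 counts) in R 4.3.3, a separate fit for each experiment, and p-values were adjusted by Benjamini-Hochberg over all genes tested, with 0.05 as threshold. The SE given with a log2 fold change was derived from the test, as the absolute log2 fold change over the square root of the quasi-likelihood F. Isoform ratios were tested with Fisher's exact test (scipy 1.17.1). Scripts were tested on simulated data. No replicate pair agreed within sampling noise. Where the sources do not say that libraries came from separate cultures, p-values measure the spread between libraries, which may be technical. Same-numbered NT and AS libraries of total RNA deviated together (r = 0.89, 0.88 and 0.83, against -0.27 to -0.54 for other pairs). Deviations were taken from the mean of each group, so negative values for other pairs follow from positive same-number ones and are no separate evidence. The 4sU and Ft libraries come from the same RNA (r = 0.22), and input and TIA1 libraries, per the study's methods, from the same lysate (r = 0.37 in NT and 0.41 in AS). Fits with a replicate block are thus given beside those without. Alternatives were DESeq2 1.42.0, TMM, library totals, other filters, the gene span alone and leaving out single libraries. The 7 genes, the pathway lists and the tests were chosen with earlier results of these data known. The text names all 7 genes and, of each pathway list it describes, the called gene with the largest change. The MAP kinase list in RNA-seq of RC4 is not reported here.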

Additional observations from a re-analysis of the deposited data

Results flagged for a closer look

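Dusp6 in RNA-seq was the result in which AS and RC4 lay on opposite sides of both NT libraries. It was at 23.9 RPM in AS and 91.7 RPM in RC4, against 34.4 and 40.01 RPM in NT, and RC4 exceeded AS by 1.94 on the log2 scale (adjusted p = 5.92e-07 by edgeR). The fall in AS itself did not pass (adjusted p = 0.0669), and each condition was 1 library. In total RNA by 3′READS the AS library was lower than the NT library of its set in 3 of 3 sets, and in the 4sU fraction AS was higher than NT. What lies behind the difference was not tested.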

How the results depend on the processing

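Of 290 alternative counts of the 7 genes called, over 30 comparisons, 241 were within 1.5 times the count reported and 49 were not. Of 537 alternative values of the fold changes called, 489 kept direction and, where tested, the call, 37 lost the call and 1 turned. The other 10 came from comparisons without a test and moved by more than the SE of the reported fit. Where a test was made, the size of a shift was not judged. The 489 thus hold larger shifts, such as Dusp8 in Ft against 4sU of NT, from -2.33 to -7.46. TMM moved none of 26 counts. DESeq2 gave 3 calls for RNA-seq AS (5 reported), 1 for total RC4 (0), 1 for 4sU AS (2), 2 for Ft AS (1), 2 for 4sU RC4 against AS (4), and 1 each for cytoplasmic input AS, MB AS and MT AS (0 each). Library totals gave 1 for 4sU AS (2), turned Dusp1 in RNA-seq RC4 against AS (-0.17, adjusted p = 0.535) and turned Dusp5 in total RC4 (-0.14), which was not called. With a mean of at least 30 counts, Ft AS had 2 (1), and MB AS, MT AS and RC4 against AS in MB and in MT had 1 each (0 each). With no filter on low counts, TIA1 against input in NT and input AS had 1 each (0 each) and MB RC4 1 (2). Counting the gene span alone gave 1 for MB RC4 (2), because the main PASs of Dusp4 and Dusp10 lie 1 nt past the annotated end and drop out. Other causes were not tested.

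With the replicate block, total RC4 had 4 calls (0 without it), Ft against 4sU had 2 in AS minus NT and 1 in RC4 minus NT (0 and 0). TIA1 against input in NT had 1 (0), with 1784 genes called in place of 351, and in AS 1553 in place of 103. Input AS and NT libraries share only a number (r = 0.54 with 2 numbers), and the block there gave 1 call, Dusp1 (3.04, adjusted p = 0.0045), and 14 genes in place of 1. In C2C12 total RNA (r = 0.06) the block kept the same 6 calls. It changed no other call of the 7 genes.

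Leaving out single libraries gave 1 to 3 calls for 4sU AS, 2 to 4 for Ft AS, 0 to 1 for Ft against 4sU in RC4 minus NT, 0 to 2 for MB AS, 2 to 4 for MB RC4, 0 to 1 for MT AS, 0 to 6 for MT RC4, and 0 to 4 for RC4 against AS in MB and in MT. Dusp1 in TIA1 against input in AS ranged from -0.42 to 1.29 and Dusp5 in total RC4 from -0.57 to 9.11, neither called, the latter against NT libraries in which Dusp5 was not listed and so no measure of size. For isoforms, Dusp6 in total RC4 was lost (0) with over 20 reads of each isoform, with the most proximal and most distal PAS and with an adjusted p, and the most proximal and distal PAS gave 1 call in 4sU RC4 (Dusp4, 81.8% to 70.4%, Fisher's exact p = 0.0292). Scaling by library totals moved the splits of TIA1 against input from 180 higher and 171 lower to 212 and 113 in NT and from 23 and 80 to 63 and 57 in AS. Depth limits Dusp5 and Dusp8 most, which were listed in 29 and 32 of 42 libraries, and single AS and RC4 libraries were assumed to vary like the NT libraries.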
